A study of Mus musculus with 6 samples.

Results

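The genes described here are 10 vascular growth factors and receptors, taken by symbol from the 31053 genes counted in single cells of mouse dorsal skin. They are the ligands Vegfa, Vegfc, Pgf, Angpt1, Angpt2 and Apln, and the receptors Kdr, Flt1, Flt4 and Tek. Cells came from female C57BL/6 mice aged 8 to 10 weeks, in 3 groups of 2 libraries. Sham mice were untreated. IMQ mice had 62.5 mg of a 5% imiquimod cream on shaved back skin once a day for 4 days, a model of psoriasis-like inflammation, and IMQ+SHP099 mice also received 10 mg/kg of SHP099, an oral allosteric inhibitor of the phosphatase SHP2, once a day for 4 days. Skin was taken 1 day after the last treatment, and each library pools the skin of several mice, so single animals cannot be told apart. The Sham group had no vehicle cream, so the cream base and the drug in it cannot be told apart.

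Vascular endothelial growth factors are secreted proteins that bind receptor tyrosine kinases on endothelial cells. VEGF-A, encoded by Vegfa, acts through VEGFR2 (Kdr) and is also bound by VEGFR1 (Flt1), the receptor for placental growth factor (Pgf). VEGF-C (Vegfc) acts on VEGFR3 (Flt4), which drives growth of lymphatic vessels. Angiopoietins act on TIE2 (Tek): angiopoietin 1 (Angpt1), made mainly by cells around vessels, is an agonist that keeps vessels stable, and angiopoietin 2 (Angpt2) can oppose it. Apelin (Apln) is a peptide made by sprouting endothelial cells. In psoriatic skin, widened and elongated dermal capillaries are a known feature, and the epidermis is a known source of VEGF-A.

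All 10 are protein-coding genes of the mouse build GRCm38. The receptor genes lie at chr5:75932827-75978458 on the minus strand (Kdr), chr5:147561604-147726011 on the minus strand (Flt1), chr11:49609263-49652739 on the plus strand (Flt4) and chr4:94739289-94874976 on the plus strand (Tek). The ligand genes lie at chr17:46016993-46032369 on the minus strand (Vegfa), chr8:54077606-54187096 on the plus strand (Vegfc), chr12:85166635-85177790 on the minus strand (Pgf), chr15:42424723-42676977 on the minus strand (Angpt1), chr8:18690263-18741562 on the minus strand (Angpt2) and chrX:48025146-48034853 on the minus strand (Apln).

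The 250 bases before the start of the receptor genes Flt1, Kdr and Tek are shown because the comparison of blood with lymphatic endothelial cells turns on these receptors. They are from RefSeq on GRCm38.p6, which had a start for 8 of the 10 genes, and are written along each gene's own strand. Capitals mark GGAA and its reverse complement TTCC, the core of the sites that ETS transcription factors bind, a family that is active in endothelial genes.
Flt1, chr5:147726012-147726261, minus strand: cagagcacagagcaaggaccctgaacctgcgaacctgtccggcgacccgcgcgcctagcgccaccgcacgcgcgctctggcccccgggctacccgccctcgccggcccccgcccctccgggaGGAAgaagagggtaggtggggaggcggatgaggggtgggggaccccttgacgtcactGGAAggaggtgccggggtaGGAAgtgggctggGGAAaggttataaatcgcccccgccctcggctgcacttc
Kdr, chr5:75978456-75978705, minus strand: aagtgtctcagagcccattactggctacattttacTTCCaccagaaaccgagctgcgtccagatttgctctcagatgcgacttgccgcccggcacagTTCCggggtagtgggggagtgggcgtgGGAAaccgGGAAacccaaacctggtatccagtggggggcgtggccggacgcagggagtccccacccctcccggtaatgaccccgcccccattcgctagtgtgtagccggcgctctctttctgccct
Tek, chr4:94739039-94739288, plus strand: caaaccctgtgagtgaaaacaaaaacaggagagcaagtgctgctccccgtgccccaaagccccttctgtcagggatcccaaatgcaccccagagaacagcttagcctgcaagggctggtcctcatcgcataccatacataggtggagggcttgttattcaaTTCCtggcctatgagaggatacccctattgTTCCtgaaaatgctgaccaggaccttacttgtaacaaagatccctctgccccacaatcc
The window of Flt1 held 4 matches, that of Kdr 4 and that of Tek 2. Flt4 had 2, Vegfa 6, Apln 3, Vegfc 1 and Pgf 0. The motif is common: 93.4% of 32851 windows of the same length before mouse genes held it, with a median of 3 matches, so these counts are a description of sequence only.

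The libraries held 7382 to 10293 cells after filtering, 50850 of 55201 barcodes in all, with median totals of 5645 to 18263.5 unique molecular identifiers (UMIs, tags that mark single captured molecules) per cell. Both extremes were IMQ+SHP099 libraries, the deeper being replicate 1. Any 2 libraries shared 14 to 43 cell barcodes, at most 0.523% of the smaller library. Cells were assigned to classes by marker genes, none of which is among the 10. This gave 500 blood endothelial cells, 771 lymphatic endothelial cells, 2296 mural cells (pericytes and smooth muscle), 20298 fibroblasts, 15987 keratinocytes and 2492 mononuclear phagocytes, while 9.79% of cells stayed unassigned. Blood endothelial cells were few and uneven: replicates 1 and 2 held 21 and 312 of them in Sham, 53 and 56 under IMQ and 21 and 37 under IMQ+SHP099, and values are given in this order of replicates throughout. Only 20 of these 500 cells and 3 of the lymphatic cells lay near the limits that set endothelial cells apart from other classes. Those limits do not measure the division of blood from lymphatic cells. Of the 500 blood endothelial cells, 27 had a UMI of the lymphatic markers Prox1, Mmrn1 or Reln, and 17 fell in a cluster of mostly lymphatic cells. All 8 pan-endothelial markers were found in both endothelial classes of every library. Of the lymphatic markers, Prox1, Lyve1, Mmrn1, Reln and Pdpn were found in every sum of lymphatic cells, but Ccl21a was at 0 in both classes of all libraries apart from a single UMI in the lymphatic cells of IMQ replicate 2. Sox17, a blood marker of the gate and a marker of arterial endothelium, was at 0 in all lymphatic sums. All these markers were used to assign the cells, so their presence or absence was in part set by the gate.

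**Figure D1:**
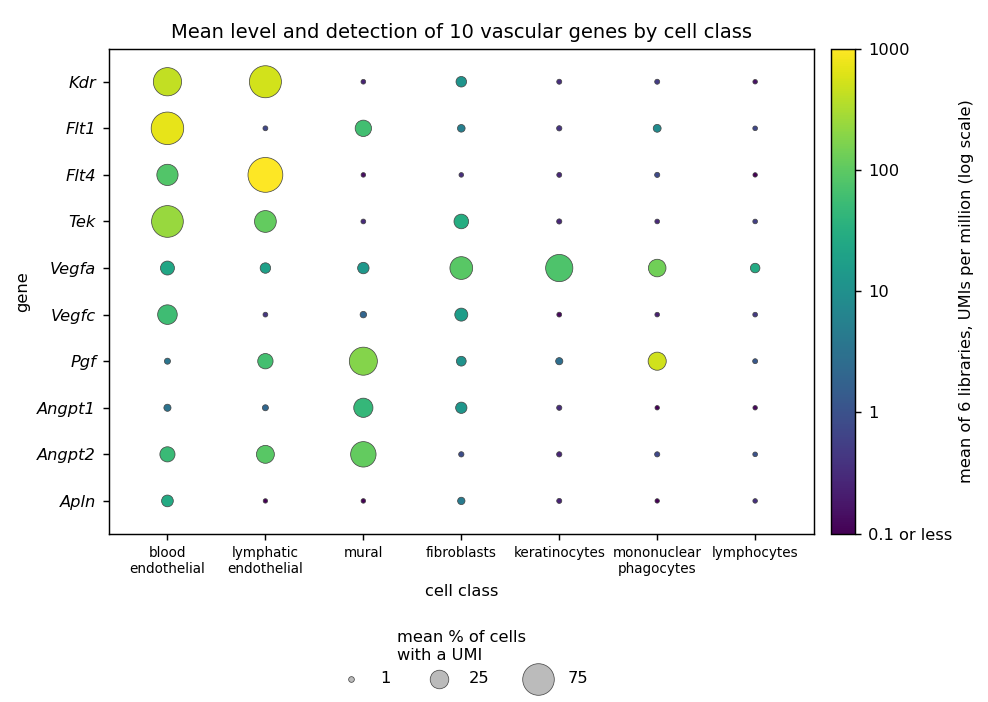
Mean level of each gene (colour, on a log scale, mean of 6 libraries, in CPM, UMIs of the gene per 1000000 UMIs of the class) and mean share of cells with a UMI of it (dot size) in 7 cell classes. Kdr is high in both endothelial classes, Flt1 in blood and Flt4 in lymphatic endothelial cells, Pgf in mononuclear phagocytes and then mural cells, Angpt1 in mural cells, and Angpt2 in mural and lymphatic endothelial cells. Colours are meant to compare classes for 1 gene, not different genes.

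The level of each receptor gene was highest in an endothelial class, blood or lymphatic. Flt1 marked blood endothelial cells and was nearly absent from lymphatic cells, Flt4 was highest in lymphatic cells and low in blood endothelial cells, Tek was higher in blood endothelial cells, and Kdr was high in both. Levels are given in CPM, the UMIs of the gene per 1000000 UMIs of the class, summed over the cells of a library. Each class pair was compared within the 6 libraries, whatever their group, by an exact two-sided permutation test of the log2 ratio, adjusted over 10 preset pairs. With 6 libraries the smallest p that this test can give is 0.03125. A pair in which all 6 libraries went the same way reached that p, as 6 of the 10 pairs did. Their adjusted p was 0.0521, a value that depends on how many of the pairs reached the smallest p. None of the 10 passed 0.05 after adjustment.

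Flt1, which encodes VEGFR1, was at 258.4 and 1525.0 CPM in blood endothelial cells of the Sham libraries, 995.0 and 625.4 under IMQ and 440.1 and 373.3 under IMQ+SHP099. In lymphatic endothelial cells the same libraries held 0, 2, 1, 1, 0 and 0 UMIs of it in all. The blood endothelial level was higher in 6 of 6 libraries, by 8.60 on the log2 scale (SD 0.37, exact permutation p = 0.03125, adjusted p = 0.0521), with 1 CPM added to each level. Because the lymphatic sums are at or under 3 UMIs, the size of this ratio depends on the added value. A sum of 0 UMIs in the lymphatic cells of Sham replicate 1 allows a level of up to 12.9 CPM. Between 47.6% and 94.6% of blood endothelial cells of a library had a Flt1 UMI, against 0 to 0.901% of lymphatic cells and 0 to 0.847% of lymphocytes, which serve as the level in cells not known to use the gene. Lymphatic cells were shallower than blood endothelial cells in all 6 libraries, and with every cell thinned to 2000 UMIs the shares were 32.2% to 89.2% and 0 to 0.208%.

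Flt4, which encodes VEGFR3, showed the opposite order. Lymphatic endothelial cells had 815.3 and 1141.8 CPM in the Sham libraries, 952.4 and 1016.9 under IMQ and 976.1 and 1010.4 under IMQ+SHP099, a mean of 985 ± 106 (SD, n = 6). Blood endothelial cells had 55.4 and 61.9, 35.1 and 32.9, and 132.0 and 174.4 in the same order. The lymphatic level was higher in 6 of 6 libraries, by 3.85 on the log2 scale (SD 0.97, exact permutation p = 0.03125, adjusted p = 0.0521). A Flt4 UMI was found in 85.5% to 96.4% of lymphatic cells. In keratinocytes, where cells are far deeper, it was 0.212% to 0.773%.

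Kdr, which encodes VEGFR2, the main signalling receptor for VEGF-A, did not separate the classes. Lymphatic cells had 504.7 and 794.8 CPM (Sham), 480.6 and 553.9 (IMQ) and 494.1 and 420.5 (IMQ+SHP099). Blood endothelial cells had 156.9 and 1133.4, 382.8 and 297.8, and 295.5 and 279.1. The lymphatic level was therefore higher in 5 of 6 libraries, and Sham replicate 2, with 312 of the 500 blood endothelial cells, went the other way. The log2 ratio of blood to lymphatic was -0.62 (SD 0.72, range -1.68 to 0.51, exact permutation p = 0.0938, adjusted p = 0.134), so the order of these classes cannot be settled with this spread. The blood endothelial mean was 424 ± 355 and the lymphatic mean 541 ± 131 (SD, n = 6).

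Tek, which encodes the angiopoietin receptor TIE2, was at 230.7 and 320.8 CPM in blood endothelial cells of the Sham libraries, 175.6 and 234.1 under IMQ and 150.9 and 348.9 under IMQ+SHP099. The lymphatic levels were 56.1 and 128.9, 111.1 and 122.0, and 111.4 and 136.5. Blood endothelial cells were higher in 6 of 6 libraries, by 1.12 on the log2 scale (SD 0.57, range 0.43 to 2.02, exact permutation p = 0.03125, adjusted p = 0.0521). The plot of receptor levels shows that the classes do not overlap for Tek, Flt1 and Flt4.

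**Figure D2:**
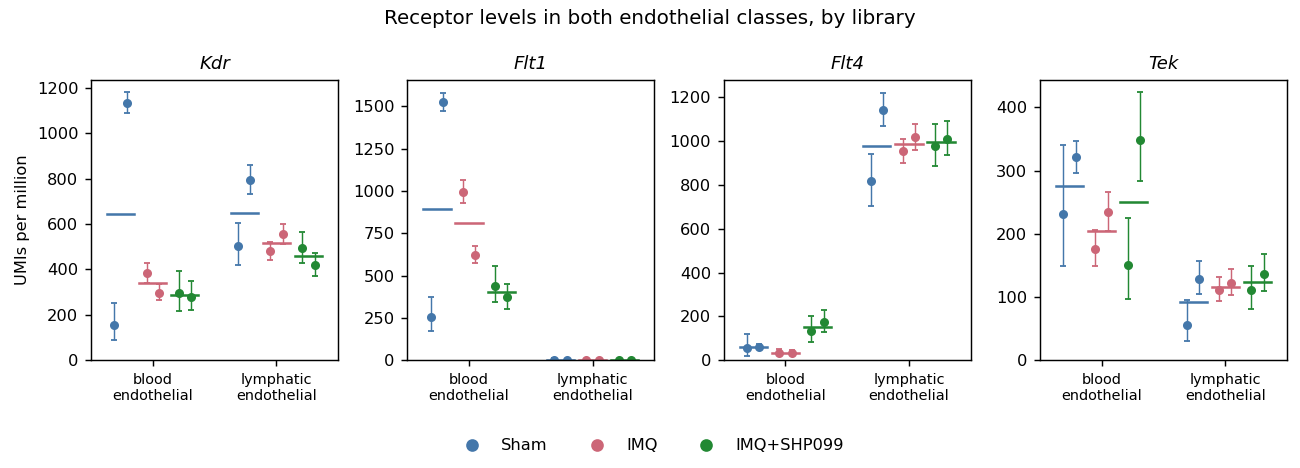
Levels of the 4 receptor genes (y axis, CPM) in blood and lymphatic endothelial cells, with 1 point per library, exact Poisson 95% intervals that cover counting error only, and a line at the mean of each group. Flt1 lies at or near 0 in lymphatic cells of all 6 libraries, Flt4 at 815.3 to 1141.8, and the 2 Sham libraries differ most for Kdr and Flt1 in blood endothelial cells.

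Receptor transcripts were not confined to endothelium. Tek had a UMI in 3265 of 20298 fibroblasts (16.1%), against 0 to 0.515% of lymphocytes in a library, and fibroblasts held 33.1% to 85.3% of all Tek UMIs of a library. The fibroblast level was 45.5 and 13.6 CPM (Sham), 18.7 and 31.9 (IMQ) and 15.7 and 56.8 (IMQ+SHP099), below the lymphatic level in 6 of 6 libraries. Kdr had a UMI in 1526 fibroblasts (7.52%). A Pecam1 or Cdh5 UMI was found in 1.47% of the Tek-positive and 2.95% of the Kdr-positive fibroblasts, against 1.94% of all fibroblasts. Both genes are endothelial markers of the gate, so the gate itself keeps them rare in fibroblasts. Kdr was higher in fibroblasts with such a UMI than in those without in 5 of 6 libraries (median ratio 1.75), and Tek in 2 of 6 (median ratio 0.72). The part of endothelial RNA in these levels was not tested. Of the Tek-positive fibroblasts 68.8% had a UMI of Dpp4, a surface peptidase found on fibroblasts of the upper dermis and fascia, and of the Kdr-positive 64.2%, against 32.5% of all. On the CPM scale, Tek was 3.34 to 9.66 times (median 4.41) and Kdr 2.29 to 4.96 times (median 3.37) as high in Dpp4-positive as in Dpp4-negative fibroblasts, in 6 of 6 libraries. Dpp4 was chosen after these values were seen, deeper cells are more likely to show a UMI of any gene, and no test was made.

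Mural cells carried Flt1 too. Their Flt1 level was 8.6 and 72.6 CPM in Sham, 80.4 and 74.9 under IMQ and 106.7 and 27.8 under IMQ+SHP099, below that of blood endothelial cells in 6 of 6 libraries. Kdr, Flt4 and Tek had at most 9 UMIs in all mural cells. In mononuclear phagocytes, where VEGFR1 is a known receptor of monocytes, Flt1 was at 7.8 and 31.0 in Sham, 2.7 and 2.0 under IMQ and 0.7 and 5.5 under IMQ+SHP099.

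The ligands were spread over more classes than the endothelial cells. Vegfa was found in fibroblasts, keratinocytes and mononuclear phagocytes, Pgf in mononuclear phagocytes, mural cells and lymphatic endothelium, Vegfc in fibroblasts and blood endothelium, and the angiopoietins in mural cells, with Angpt2 also in lymphatic endothelium. The share of a ligand's UMIs that a class holds depends on how many cells of it were captured, and keratinocytes were 451 to 6138 per library. For that reason levels within a class are the measure compared.

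**Figure D3:**
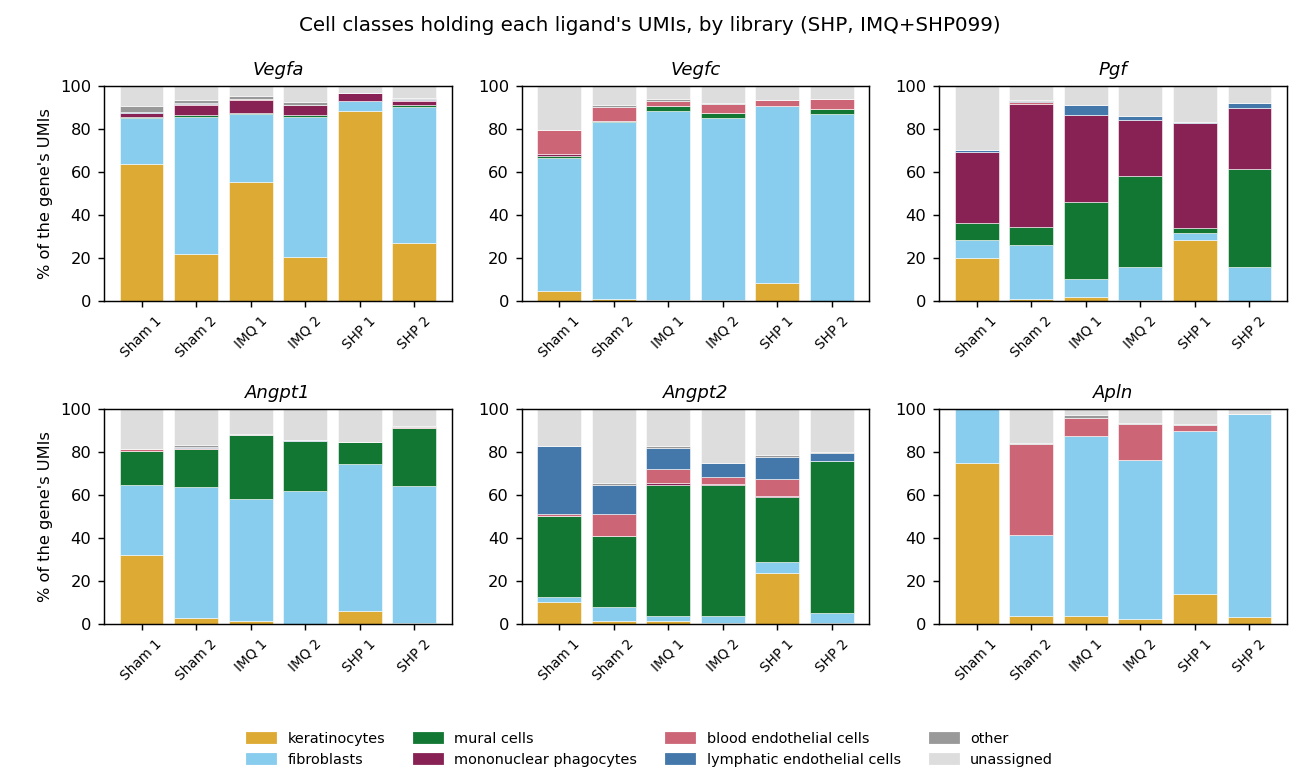
Share of all UMIs of 6 ligand genes (y axis, %) held by each cell class, with 1 bar per library. Fibroblasts held 62.1% to 87.8% of Vegfc, while for Vegfa the keratinocyte share ran from 20.7% to 88.1% in libraries with 451 to 6138 keratinocytes.

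Vegfa was at 99.9 and 127.3 CPM in fibroblasts of the Sham libraries, 81.3 and 84.1 under IMQ and 60.9 and 102.0 under IMQ+SHP099. Keratinocytes had 23.0 and 47.3, 106.4 and 66.2, and 102.7 and 120.7. Fibroblasts were thus above keratinocytes in both Sham libraries and in IMQ replicate 2, and below in the other 3. Over the 6 libraries the keratinocyte to fibroblast ratio was -0.41 on the log2 scale (SD 1.11, exact permutation p = 0.4375, adjusted p = 0.4375). Mononuclear phagocytes had 49.4 and 50.3, 112.2 and 93.5, and 458.0 and 51.6, with IMQ+SHP099 replicate 1 far above the other library of its group.

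Vegfc was at 12.7 and 21.5 CPM in fibroblasts of Sham, 17.0 and 16.0 under IMQ and 15.2 and 14.1 under IMQ+SHP099, and between 0 and 0.226 in keratinocytes. Fibroblasts were higher in 6 of 6 libraries, by 3.92 on the log2 scale (SD 0.18, exact permutation p = 0.03125, adjusted p = 0.0521). Blood endothelial cells had a mean of 56.8 ± 44.0 (SD, n = 6) from 161 UMIs in all, above fibroblasts in 5 of 6 libraries. Lymphatic endothelial cells, whose receptor Flt4 is the target of VEGF-C, had 3 Vegfc UMIs among 771 cells.

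Angpt1 and Angpt2 were both highest in mural cells among the classes with at least 10 cells in every library. Angpt1 was at 53.6 and 64.7 CPM in mural cells of Sham, 43.8 and 37.5 under IMQ and 25.1 and 49.6 under IMQ+SHP099. Fibroblasts had 8.1 and 10.9, 14.3 and 13.7, and 7.8 and 20.01, lower in 6 of 6 libraries by 1.80 on the log2 scale (SD 0.57, exact permutation p = 0.03125, adjusted p = 0.0521). Angpt2 was at 102.9 and 124.6, 115.6 and 119.5, and 113.0 and 86.7 in mural cells, and at 172.5 and 107.2, 85.3 and 91.7, and 60.5 and 34.5 in lymphatic cells. Mural cells were above lymphatic cells in 5 of 6 libraries, all but Sham replicate 1. Blood endothelial cells had 9.2 and 32.2, 81.9 and 59.6, and 119.5 and 7.0, below lymphatic cells in 5 of 6 libraries (log2 ratio -1.27, SD 1.78, exact permutation p = 0.156, adjusted p = 0.174).

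Apln, the apelin gene, had 97 and 62 UMIs in blood endothelial cells of Sham replicate 2 and IMQ replicate 2, 21 in IMQ replicate 1, 4 in IMQ+SHP099 replicate 1 and 0 in the other libraries. The levels were 48.0, 63.7, 24.6 and 25.2 CPM where it was found. A count of 0 among the 21 cells of Sham replicate 1 allows a level of up to 27.7, so absence there cannot be read. Lymphatic cells had 0 Apln UMIs in all 6 libraries. Blood endothelial cells were higher in the 4 libraries that had any (log2 ratio 3.50, SD 2.76, exact permutation p = 0.125, adjusted p = 0.156). Fibroblasts had 0.6 and 2.5, 6.4 and 4.6, and 8.1 and 4.2 CPM, and held 25% to 94.4% of the gene's UMIs. Its receptor gene Aplnr, from the list of other vascular genes, was at 0 in all lymphatic sums and at 496.6 CPM in blood endothelial cells of Sham replicate 2, with 0 to 182.3 in the other 5 libraries.

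Pgf, encoding placental growth factor, was lower in blood than in lymphatic endothelial cells, by little in Sham replicate 2. Blood endothelial cells held 0, 11, 0, 9, 0 and 2 Pgf UMIs in the order Sham, IMQ and IMQ+SHP099. Lymphatic cells were higher in 6 of 6 libraries, by a log2 ratio of blood to lymphatic of -4.07 (SD 2.45, range -7.18 to -0.43, exact permutation p = 0.03125, adjusted p = 0.0521). Mural cells had 162.9 and 58.1 CPM in Sham, 249.4 and 233.8 under IMQ and 197.7 and 195.4 under IMQ+SHP099, above lymphatic cells in 6 of 6 libraries. Mononuclear phagocytes had 257.3 and 97.3, 338.9 and 302.1, and 1742.7 and 323.5, above mural cells in 6 of 6. The highest value, in IMQ+SHP099 replicate 1, stands beside a share of 107 Cd207-positive cells among the 161 mononuclear phagocytes of that library.

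Within mononuclear phagocytes, levels of Pgf and Vegfa were higher in cells with a UMI of Cd207, the langerin gene that marks Langerhans cells of the epidermis. Those cells numbered 119 and 100 in Sham, 72 and 59 under IMQ and 107 and 22 under IMQ+SHP099. Their Pgf level was 306.2 and 145.1 CPM in Sham, 1126.5 and 1237.3 under IMQ and 2107.3 and 2250.0 under IMQ+SHP099. Phagocytes with no Cd207 UMI had 187.8 and 85.2, 16.5 and 24.6, and 178.6 and 16.7. The Cd207-positive level was 1.63 to 134.6 times the negative one (median 31.0), and the smallest ratios were in the Sham libraries. Vegfa in the Cd207-positive cells was 54.8 and 89.7, 310.8 and 259.0, and 541.4 and 226.2, which is 1.31 to 10.1 times the level in the negative cells, in 6 of 6 libraries.

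In Cd207-positive phagocytes both IMQ libraries lay above both Sham libraries for Pgf (1182 ± 78.3 against 226 ± 114, SD, n = 2) and for Vegfa (285 ± 36.6 against 72.3 ± 24.7). The same held for 22.1% of the 5564 genes with a mean of at least 20 CPM in 1 of these groups. Both IMQ+SHP099 libraries lay above both IMQ libraries for Pgf (2179 ± 101), as did 14.1% of 5300 genes, while Vegfa overlapped. The share of Cd207-positive cells with a Pgf UMI was 29.4% and 18.0% in Sham, 80.6% and 83.1% under IMQ and 86.0% and 95.5% under IMQ+SHP099. Median totals in these cells were 5946 and 12964 UMIs in Sham, 18681 and 13173 under IMQ and 10006 and 11425 under IMQ+SHP099, so depth moved with the first contrast. Mrc1, a macrophage gene, was at 127.9 CPM in the Cd207-positive cells of Sham replicate 2, against 4.0 to 16.5 in the other 5 libraries. Epcam in the Cd207-positive cells ran from 242.3 to 985.4 in Sham, against 799.0 to 996.3 under IMQ. Cd207 itself ran from 1235.4 to 4813.5 in Sham, against 1356.4 to 1434.4 under IMQ. The part of these differences in the Sham level was not tested. The division by Cd207 was chosen after the values were seen and is given without a test. The number of libraries is 2 a group, with which an exact permutation test cannot go below p = 0.333.

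**Figure D4:**
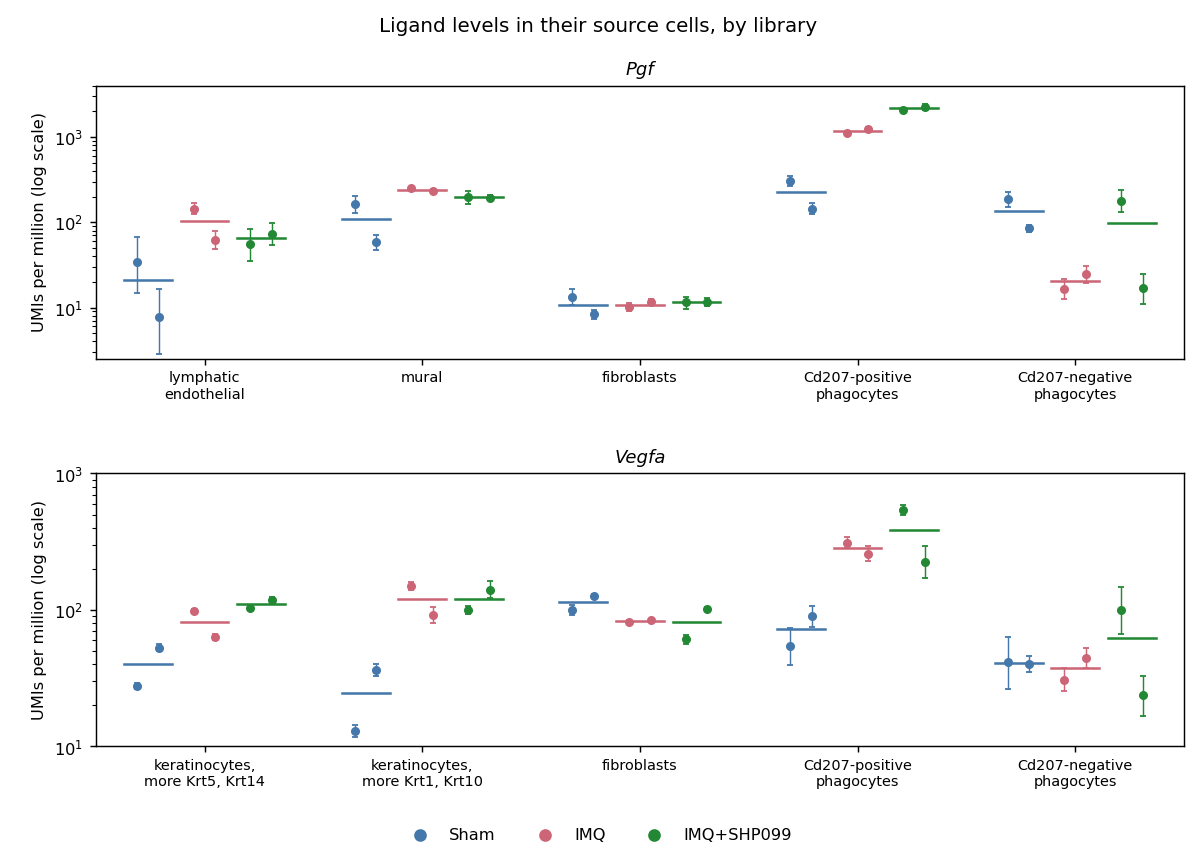
Levels of Pgf and Vegfa (y axis, CPM, log scale) in the classes that hold most of them, with 1 point per library, exact Poisson 95% intervals for counting error only, and a line at each group mean. Pgf in Cd207-positive phagocytes runs from 145.1 in Sham to 2250.0 in IMQ+SHP099, while fibroblasts stay between 8.3 and 13.4.

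The comparison of IMQ with Sham asked which of these genes the cream changed within a class. Across all genes of a class, edgeR's quasi-likelihood test on library sums with Benjamini-Hochberg adjustment called 2 of the members' changes, both of them rises. They were Pgf in lymphatic endothelial cells, where 0.856% of 7942 genes were called, and Vegfa in keratinocytes, where 12.5% of 14243 genes were. No receptor passed the test in any class, but neither did any gene in blood endothelial cells (0 of 7647) or mononuclear phagocytes (0 of 10180). These counts do not set ligands apart from receptors. Fold changes are given for the 28 pairs of gene and class, or gene and all cells, in which the gene reached a mean of 20 CPM in at least 1 group.

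Pgf in lymphatic endothelial cells was at 34.5 and 7.7 CPM in Sham (8 and 6 UMIs), 144.1 and 62.3 under IMQ (179 and 72 UMIs) and 55.7 and 73.7 under IMQ+SHP099 (23 and 47 UMIs). Both IMQ libraries lay above both Sham libraries, as for 23.0% of 6759 genes in this class. The log2 fold change was 2.88 (SE 0.57, edgeR adjusted p = 0.0279), in a class where 68 of 7942 genes, 0.856%, were called. A Pgf UMI was found in 10.5% and 5.4% of lymphatic cells in Sham and in 30.4% and 21.1% in IMQ. The lymphatic cells are gated on endothelial genes, and the summed level of 8 mural markers in them was 38.8 and 51.0 CPM in Sham and 98.2 and 289.9 in IMQ, between 0.144% and 0.916% of the level in mural cells. The 8 myeloid markers summed to 17.3 and 24.2 in Sham and 41.9 and 40.7 in IMQ, 0.223% to 0.255% of the level in mononuclear phagocytes. The part of either in the result was not tested. The call was lost without Sham replicate 2 (log2 fold change 1.503, edgeR adjusted p = 0.449) and without IMQ replicate 1 (2.07, edgeR adjusted p = 0.236). It was also lost with classes taken from clusters of cells (2.35, edgeR adjusted p = 0.369), with a 5% limit on mitochondrial UMIs (2.74, edgeR adjusted p = 0.0516) and with scaling by library size alone (2.79, edgeR adjusted p = 0.0535).

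Vegfa in keratinocytes rose by a log2 fold change of 1.66 (SE 0.34, edgeR adjusted p = 0.0189), from 23.0 and 47.3 CPM in Sham to 106.4 and 66.2 in IMQ. Calls were common in this class, 1776 of 14243 genes or 12.5%, and 23.2% of 6058 genes had both IMQ libraries above both Sham libraries. A Vegfa UMI was found in 19.2% and 38.4% of Sham keratinocytes and in 74.5% and 62.2% of IMQ keratinocytes, whose median totals were 9845 and 15127 against 34961 and 31459 UMIs. With each cell thinned to 2000 UMIs, the shares were 4.2% and 8.4% against 17.3% and 11.1%. Both IMQ libraries were above both Sham libraries in keratinocytes with more Krt5 and Krt14 UMIs, keratins of the basal layer (27.7 and 53.0 in Sham against 99.0 and 63.5 CPM in IMQ), and in those with more Krt1 and Krt10 UMIs, keratins of the upper layers (13.0 and 36.2 against 149.3 and 92.1). The split was chosen after the values were seen. Fibroblast markers in keratinocytes summed to 0.151% and 0.361% of their level in fibroblasts in Sham and to 0.556% and 0.620% in IMQ, so both IMQ libraries were higher, and their part in the result was not tested. The call was lost without Sham replicate 1 (log2 fold change 1.44, edgeR adjusted p = 0.0592), without IMQ replicate 1 (1.23, edgeR adjusted p = 0.217), and with scaling by library size alone (1.30, edgeR adjusted p = 0.0645).

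In the other classes that make Pgf and Vegfa, the changes did not pass. Pgf in mural cells, with both IMQ libraries above both Sham libraries as for 19.6% of 6506 genes there, had a log2 fold change of 1.37 (SE 0.45, edgeR adjusted p = 0.143), and 224 of 10967 genes (2.04%) were called in that class. Without Sham replicate 1, whose level was nearer to IMQ, it was 2.45 (edgeR adjusted p = 0.00932), and without Sham replicate 2 it was 0.65 and did not pass. Vegfa in mural cells had 8.6 and 41.1 CPM in Sham and 7.2 and 8.4 in IMQ, a log2 fold change of -1.70 (SE 0.41, edgeR adjusted p = 0.0688), which became -1.99 (edgeR adjusted p = 0.0184) without Sham replicate 1 and -0.048 (edgeR adjusted p = 0.994) without Sham replicate 2. In fibroblasts, where 89 of 14649 genes (0.608%) were called, Vegfa had -0.37 (SE 0.27, edgeR adjusted p = 0.732). In mononuclear phagocytes as a whole, Pgf had 0.83 (SE 0.84), which was 1.91 without Sham replicate 1 and 0.19 without Sham replicate 2, neither of which passed. Vegfa had 1.08 (SE 0.87) there, in a class with 0 of 10180 genes called (795 at an unadjusted p under 0.05, and 145 by DESeq2).

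The receptors in endothelial cells had wide errors for this contrast. In blood endothelial cells the log2 fold changes of IMQ over Sham were -0.80 (SE 0.65) for Kdr, 0.01 (SE 0.63) for Flt1, -0.31 (SE 0.43) for Tek and -0.66 (SE 0.37) for Flt4, in a class with 0 of 7647 genes called (1184 at an unadjusted p under 0.05, and 29 by DESeq2). The sign for Kdr rests on which Sham library is kept: it was -1.47 without replicate 1 (edgeR adjusted p = 0.0443) and 1.20 without replicate 2 (edgeR adjusted p = 0.356). Angpt2 in the same cells had a log2 fold change of 1.51 (SE 0.78, edgeR adjusted p = 0.368). In lymphatic cells the values were narrower: -0.29 (SE 0.28) for Kdr, 0.05 (SE 0.27) for Flt4 and 0.27 (SE 0.29) for Tek.

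Summed over all cells, Pgf was at 10.1 and 13.2 CPM in Sham, 39.3 and 40.9 under IMQ and 29.9 and 39.9 under IMQ+SHP099. Both IMQ libraries lay above both Sham libraries, as for 17.7% of 6889 genes. The log2 fold change was 1.81 (SE 0.33) but did not pass (edgeR adjusted p = 0.382), with 0 of 17382 genes called (1266 at an unadjusted p under 0.05). DESeq2 called 574 genes, Pgf among them (adjusted p = 0.00788), and a fit with the replicate number as a block called 287, also with Pgf (edgeR adjusted p = 0.0431). In such a sum, more cells of a type and more RNA per cell cannot be told apart, and mural cells, a main source, numbered 85 and 193 in Sham against 472 and 792 in IMQ.

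**Figure D5:**
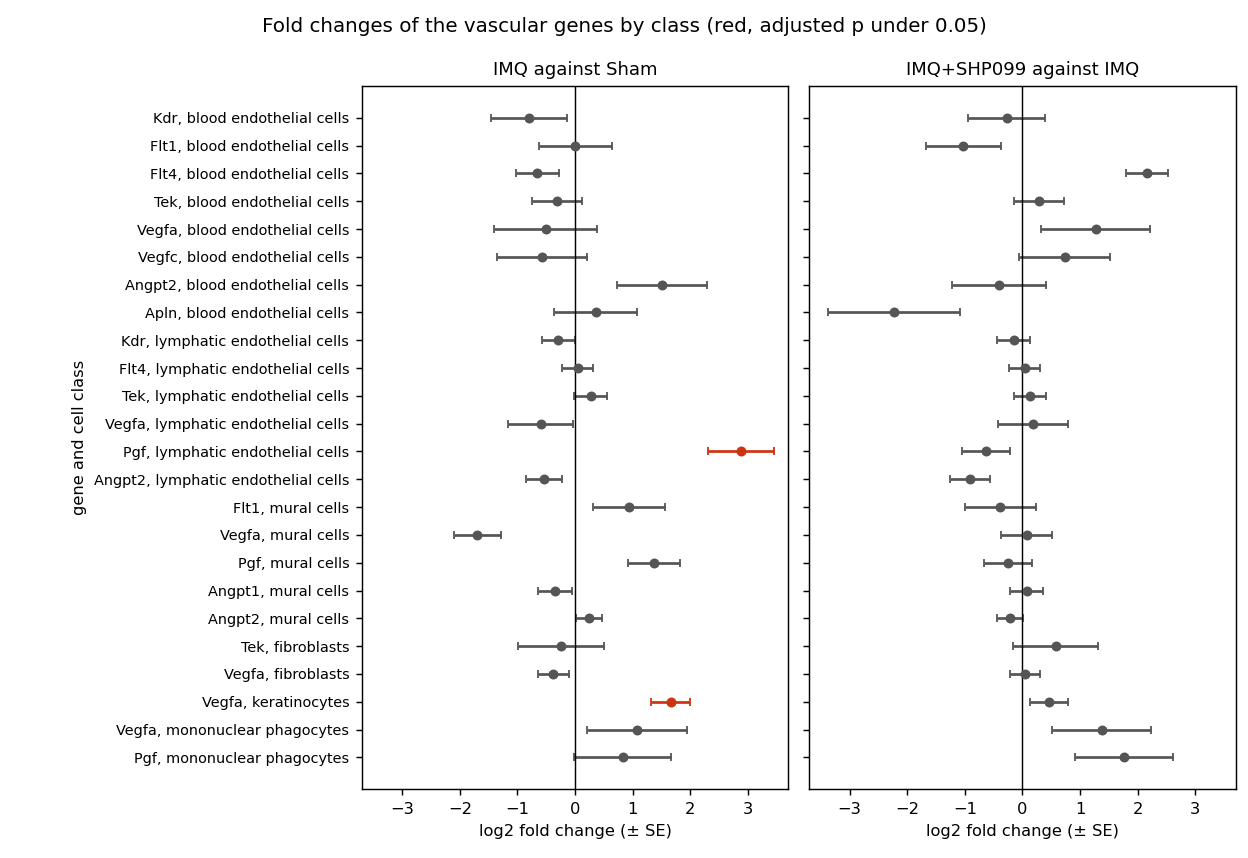
Log2 fold changes of the members by gene and class (x axis, points, with bars of 1 SE) for IMQ against Sham on the left and IMQ+SHP099 against IMQ on the right, for the pairs with a mean of at least 20 CPM in a group. Red marks the 2 that passed, Pgf in lymphatic endothelial cells (2.88) and Vegfa in keratinocytes (1.66), and none passed on the right.

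The comparison of IMQ+SHP099 with IMQ asked whether the inhibitor moved the same genes. None of the 10 members was called in any class or in all cells, and neither was any other gene: edgeR called 0 genes in each of the 7 sums, with 52 to 467 genes per sum at an unadjusted p under 0.05, and DESeq2 called 0 to 18. Both contrasts share the IMQ libraries. Pgf in lymphatic cells had a log2 fold change of -0.63 (SE 0.42), and its level in IMQ+SHP099 lay within or just below the IMQ range. Vegfa in keratinocytes had 0.46 (SE 0.33), and neither gene's value went back to the Sham level in both libraries.

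The smallest p among the members in this contrast belonged to Flt4 in blood endothelial cells, 132.0 and 174.4 CPM in IMQ+SHP099 against 35.1 and 32.9 in IMQ, a log2 fold change of 2.16 (SE 0.36, unadjusted p = 0.000168, edgeR adjusted p = 0.1303). Both IMQ+SHP099 libraries were above both IMQ libraries, as for 18.6% of 6607 genes. Of the gated blood endothelial cells, 6 of 21 and 4 of 37 in IMQ+SHP099 had a UMI of Prox1, Mmrn1 or Reln, against 3 of 53 and 4 of 56 in IMQ. Without those cells, an alternative added after seeing the data, Flt4 was at 47.7 and 38.1 in IMQ+SHP099 and 32.4 and 27.5 in IMQ, with a log2 fold change of 0.48 (SE 0.47, edgeR adjusted p = 0.984). Flt4 is much higher in lymphatic cells, so leaving out cells chosen by lymphatic UMIs was bound to lower it. By clusters, 7 of 21 and 4 of 37 gated cells in IMQ+SHP099 fell in a cluster of mostly lymphatic cells. In IMQ these were 1 of 53 and 2 of 56. Over 17 alternatives the log2 fold change of Flt4 ran from 0.44 to 2.31, and with 1 library left out from 1.92 to 2.31. The part in the change of cells with lymphatic UMIs, or of cells in that cluster, was not tested. Angpt2 in lymphatic cells was lower in both IMQ+SHP099 libraries than in both IMQ libraries (60.5 and 34.5 against 85.3 and 91.7), as for 17.7% of 6499 genes, with a log2 fold change of -0.92 (SE 0.35, edgeR adjusted p = 1).

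Of 34 other genes of vascular pathways, 5 changes passed in IMQ against Sham and none in IMQ+SHP099 against IMQ. How these 5 fare under the alternative settings is not given. Under those settings the calls over all genes went as low as 1 in lymphatic cells, 0 in fibroblasts and 464 in keratinocytes. In lymphatic cells, where 0.856% of all genes were called, 1 of 22 tested genes rose, Thbs1, which encodes the angiogenesis inhibitor thrombospondin 1. It was at 17.3 and 35.7 CPM in Sham, 88.6 and 68.4 under IMQ and 53.3 and 54.9 under IMQ+SHP099 (log2 fold change 1.45, SE 0.32, edgeR adjusted p = 0.0499). The median over the 22 genes was 0.08, against -0.01 over all genes tested.

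In fibroblasts, where 0.608% of all genes were called, 1 of 29 rose, Epas1, which encodes the hypoxia-inducible factor HIF-2α. Its levels were 3.3 and 9.9 CPM in Sham, 148.1 and 78.6 under IMQ and 139.8 and 83.1 under IMQ+SHP099 (log2 fold change 4.19, SE 0.56, edgeR adjusted p = 0.0357). The IMQ+SHP099 libraries lay in the IMQ range. The list median there was -0.14, against -0.01 over all genes.

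In keratinocytes 1 of 25 rose and 2 fell, in a class where 12.5% of all genes were called. Tie1, an orphan receptor of the TIE family known from endothelium, went from 0.2 and 0.6 CPM in Sham to 6.5 and 4.6 under IMQ and 10.998 and 8.9 under IMQ+SHP099 (log2 fold change 4.24, SE 0.48, edgeR adjusted p = 0.00195), a level far under its 348.6 and 366.1 in lymphatic cells of IMQ. Unc5b, a netrin receptor, went from 13.1 and 25.7 to 4.9 and 3.8 (-1.80, SE 0.31, edgeR adjusted p = 0.0101). Pdgfb, a ligand that recruits pericytes, went from 21.9 and 33.7 to 4.6 and 5.3 (-2.19, SE 0.36, edgeR adjusted p = 0.00804). The list median was -0.06, against -0.09 over all genes. None of the 26 list genes tested in blood endothelial cells, 23 in mural cells and 15 in mononuclear phagocytes passed, nor any of the 34 in all cells.

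The genes whose pattern was most like that of a member were found by Pearson's r of log2 levels over 57 sums of class and library, among 11514 genes that are neither members nor gate markers. These sums share libraries and classes, so r is a description. Flt4 was most like Klhl4 (r = 0.96) and Prrt4 (0.96), Kdr most like Shank3 (0.95), Sncaip (0.95) and Sox18 (0.94), a transcription factor of vessel development, and Tek most like Unc45b (0.99) and Hspa12b (0.96). Flt1 was most like Vsig2 (0.90) and Gja5 (0.88), a connexin of arteries. Angpt2 was most like Gja4 (0.90) and Angpt1 most like Ror1 (0.83). For the other ligands the highest r was 0.85 for Vegfa with Zfp217, 0.81 for Pgf with Scn3a, 0.80 for Apln with Plscr2, and 0.74 for Vegfc with Cd34.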

How the data were processed

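Droplet 3′ single-cell RNA sequencing was made from dorsal skin, and the authors deposited, per library, a matrix of whole-number UMI counts per gene and barcode. The counts were made with Cell Ranger 3.1.0, as the file headers give it, on GRCm38 (mm10). No authors' cell annotation was used here, so cell types were rebuilt. The study's limits were used: a barcode was kept below 100000 UMIs, 6500 genes and a mitochondrial share of 10%. A cell joined the class whose list of marker genes (88 genes in 12 classes) scored highest, if the score was at least 0.3, at least 3 markers were found and the second class scored at most 0.6 of the first. Endothelial cells were divided by blood and lymphatic markers, with at least 2 of the class found. Names made this way can differ from the study's. Likely doublets were kept, and cells with a Scrublet score over 0.3 were left out as an alternative.

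UMIs were summed per library and class, and the library was the replicate. Library totals of the deposited counts were 53913865 to 188283327 UMIs. Each library pools mice, and nothing says that the 2 libraries of a group are separate experiments, so p-values measure only the spread between these libraries. Sums with at least 10 cells in every library were fitted with edgeR 4.0.16 (R 4.3.3) by the quasi-likelihood test, TMM scaling, filterByExpr and all 6 libraries, with Benjamini-Hochberg adjustment over all genes of a class and a threshold of 0.05. The SE of an edgeR log2 fold change is approximate: the size of the change divided by the square root of the test's F value. DESeq2 1.42.0 was an alternative, and the remaining steps used Python 3.11.15, numpy 2.4.6, scipy 1.17.1, pandas 2.3.3 and scanpy 1.11.5. The code was tested on simulated data. Intervals are exact at 95% and cover counting error only, and a count of 0 was given a limit of 3 counts. Ratios between classes used a pseudocount of 1 CPM (UMIs per 1000000). The 10 genes were described by a fixed rule that gives each in every class. Members of the list of 34 vascular genes were named where they passed the test, and Aplnr was named as the receptor of apelin. The 10 genes, the marker lists and the list of vascular genes were chosen with earlier results of these data known. The divisions by Cd207, Dpp4, keratins and lymphatic UMIs were chosen after the values were seen. Other scalings, filters, gates, clusters and left-out libraries were tried as alternatives.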

Additional observations from a re-analysis of the deposited data

How the results depend on the processing

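The members' calls depended on the library left out, and no alternative made more than 3 of them. Over 16 to 18 alternatives per class, the number of all genes called in IMQ against Sham was 0 to 574 in all cells, 0 to 404 in blood endothelial cells, 1 to 261 in lymphatic cells, 18 to 1068 in mural cells, 0 to 1339 in fibroblasts, 464 to 3133 in keratinocytes and 0 to 565 in mononuclear phagocytes. For IMQ+SHP099 against IMQ the highest counts in the same order were 3, 124, 20, 139, 71, 132 and 45.

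Calls of members in IMQ against Sham became 0 in lymphatic cells with library size alone, a 5% mitochondrial limit or clusters, and 0 in keratinocytes with library size alone. They became 1 in all cells with DESeq2 (Pgf), 1 in mural cells with a stricter gate (Pgf, log2 fold change 1.18, edgeR adjusted p = 0.0404) and 1 in fibroblasts with DESeq2 (Flt1). With no filter on low counts they became 1 in blood endothelial cells (Angpt2, edgeR adjusted p = 0.0438), 3 in mural cells, 2 in fibroblasts and 1 in mononuclear phagocytes (Flt1). In IMQ+SHP099 against IMQ they became 1 in blood endothelial cells with no filter or with only the 2 groups fitted (Flt4, edgeR adjusted p = 0.0442), and 1 each in keratinocytes and mononuclear phagocytes with no filter (Pgf). When 1 library was left out, the calls ranged from 0 to 1 in blood endothelial cells for both contrasts, and in IMQ against Sham from 0 to 1 in lymphatic cells, 0 to 2 in mural cells and 0 to 1 in keratinocytes. Flt4 in blood endothelial cells was called for SHP099 without Sham replicate 1 (edgeR adjusted p = 0.0167) and without Sham replicate 2 (0.0427). The log2 fold change of Pgf in lymphatic cells ran from 1.503 to 3.876 and that of Vegfa in keratinocytes from 1.23 to 2.03. The cause of these changes was not tested. Calls over all genes also varied over the alternatives, in the ranges given above. The counts of members called are therefore not a result about the members.

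Each class pair kept its direction under all of its 11 or 12 alternatives, which gave 117 results over the pairs.

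Replicate numbers are shared by the groups, but with 2 numbers they do not show that samples were paired. Deviations of same-numbered libraries correlated between -0.146 (blood endothelial cells, Sham and IMQ) and 0.562 (all cells, Sham and IMQ+SHP099). With a replicate block, members called in all cells for IMQ against Sham became 1 (Pgf, edgeR adjusted p = 0.0431), and the sign turned for Vegfa in mural cells under SHP099 (-0.0877) and, in all cells under IMQ, for Kdr (0.297) and Flt1 (1.1332). For blood endothelial cells the crossed pairing, added after seeing the data, called 53 of 7647 genes in IMQ against Sham and 0 members, while the plain block called 0.

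Other turns of sign were all in changes that were not called. Scaling by library size turned Vegfa in fibroblasts (-0.0216) and Pgf in all cells (-0.1988) under SHP099, and Flt1 in blood endothelial cells (-0.1999) and Flt4 in lymphatic cells (-0.0011) under IMQ. Clusters turned Flt4 in lymphatic cells (-0.0346 under IMQ, -0.0415 under SHP099), Angpt1 in mural cells (-0.1101) and Angpt2 in blood endothelial cells (0.8462) under SHP099. Angpt2 in mural cells under IMQ turned with the 5% limit (-0.0151), clusters (-0.0206) and the stricter gate (-0.0235).

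Leaving out 1 library turned the sign of these changes, given as lowest to highest log2 fold change. In IMQ against Sham they were Apln (-0.2092 to 7.4162), Flt1 (-0.643 to 1.7401), Kdr (-1.4721 to 1.2025), Vegfa (-2.113 to 0.0903) and Vegfc (-1.9589 to 0.5014) in blood endothelial cells, Flt4 (-0.0692 to 0.193), Tek (-0.0007 to 0.9738) and Vegfa (-1.193 to 1.8268) in lymphatic cells, Tek in fibroblasts (-0.9945 to 1.1967), and Flt1 (-1.1081 to 3.9865) and Kdr (-1.3621 to 1.9794) in all cells. In IMQ+SHP099 against IMQ they were Angpt2 (-3.3668 to 0.7205), Tek (-0.4645 to 0.7256) and Vegfa (-6.4493 to 1.9746) in blood endothelial cells, Flt4 (-0.0039 to 0.0877), Pgf (-1.1112 to 0.0981), Tek (-0.0193 to 0.2393) and Vegfa (-1.1311 to 0.8297) in lymphatic cells, Angpt1 (-0.6824 to 0.3648), Flt1 (-1.405 to 0.4678) and Vegfa (-0.0349 to 0.1888) in mural cells, Tek (-0.5499 to 1.1791) and Vegfa (-0.3099 to 0.307) in fibroblasts, Vegfa in mononuclear phagocytes (-0.9086 to 2.2106) and Pgf in all cells (-0.0695 to 0.1701). The 21 blood endothelial cells in each of Sham replicate 1 and IMQ+SHP099 replicate 1 limit what these data can show for receptors in that class.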
